A study of Homo sapiens with 18 samples.

Results

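One hour of feeding under Torin1 was examined in HEK-293E cells, a derivative of the human embryonic kidney line HEK293, by RNA sequencing. It is the comparison of 3 libraries from cells fed for 1 h with 3 libraries from starved cells, and all 6 were treated with Torin1, an inhibitor of the kinase activity of mTOR in both of its complexes. These are 6 of the 18 libraries of the series, which form 6 groups of 3: starved, fed for 1 h and fed for 4 h, each with and without Torin1. Starved cells were kept overnight in medium with very little serum, and fed cells then received the regular growth medium with serum. The libraries of both groups compared here therefore carry the drug, and feeding is the one labelled difference between them. The sources used here give neither the dose of Torin1 nor how long it was present. The labels number the replicates but do not say whether they were separate cultures, so each p-value reflects only how these libraries vary, which may be technical.

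As background, serum brings growth factors and lipids that act on receptors at the cell surface, while glucose and amino acids are sensed inside the cell. Growth factor receptors start the Ras and ERK kinase cascade, which reaches ready-made transcription factors at the CArG box, the site that SRF binds in front of the immediate early genes EGR1 and FOS. mTOR is the kinase through which cells match growth to amino acids and growth factors. It sits on a different branch from ERK, and Torin1 blocks it without being an inhibitor of ERK itself. TXNIP, an inhibitor of thioredoxin that also limits glucose uptake, is switched on through the glucose-sensing factors MondoA and ChREBP at the carbohydrate response element (ChoRE).

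The stretches just upstream of 5 genes that the results turn on are shown with known control elements in capitals, each 250 bases long, 5′ to 3′ on the gene's strand and ending at the base before the start. They come from RefSeq, build GRCh38.p14, and their matches describe letters only. EGR1 and SRF, which rose, each hold a pair of CArG boxes, and FILIP1L, which rose with them, holds 1. MT1X, a metallothionein, holds 4 metal response elements (TGCACNC or TGCGCNC), and TXNIP, which fell, holds 1 ChoRE. SRF, FILIP1L and TXNIP each have 2 starts in this source, and only the stretch that holds the element is shown. The stretch of the other start does not hold it, and which start these cells used was not examined. The positions are chr5:138465229-138465478 on the plus strand for EGR1, chr6:43171019-43171268 on the plus strand for SRF, chr3:99876174-99876423 on the minus strand for FILIP1L, chr16:56682220-56682469 on the plus strand for MT1X and chr1:145996580-145996829 on the minus strand for TXNIP.
EGR1: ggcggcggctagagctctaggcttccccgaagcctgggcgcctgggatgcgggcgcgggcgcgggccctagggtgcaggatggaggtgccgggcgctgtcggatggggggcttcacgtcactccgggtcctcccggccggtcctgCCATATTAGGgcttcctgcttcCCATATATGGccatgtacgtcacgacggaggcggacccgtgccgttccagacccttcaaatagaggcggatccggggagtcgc
SRF: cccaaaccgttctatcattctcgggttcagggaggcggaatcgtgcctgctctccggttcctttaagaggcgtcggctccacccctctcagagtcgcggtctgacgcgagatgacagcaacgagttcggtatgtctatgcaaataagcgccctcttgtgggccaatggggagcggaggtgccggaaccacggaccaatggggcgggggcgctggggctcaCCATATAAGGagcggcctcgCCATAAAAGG
FILIP1L: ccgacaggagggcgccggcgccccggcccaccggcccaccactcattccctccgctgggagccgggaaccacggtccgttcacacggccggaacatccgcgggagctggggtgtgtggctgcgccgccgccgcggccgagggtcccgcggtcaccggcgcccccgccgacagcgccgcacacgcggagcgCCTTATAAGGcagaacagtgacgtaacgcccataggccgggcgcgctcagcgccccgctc
MT1X: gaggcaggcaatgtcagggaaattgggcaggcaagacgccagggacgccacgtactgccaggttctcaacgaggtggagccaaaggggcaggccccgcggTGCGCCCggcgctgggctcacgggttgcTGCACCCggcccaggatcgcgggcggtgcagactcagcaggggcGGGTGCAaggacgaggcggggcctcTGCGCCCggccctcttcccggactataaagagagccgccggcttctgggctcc
TXNIP: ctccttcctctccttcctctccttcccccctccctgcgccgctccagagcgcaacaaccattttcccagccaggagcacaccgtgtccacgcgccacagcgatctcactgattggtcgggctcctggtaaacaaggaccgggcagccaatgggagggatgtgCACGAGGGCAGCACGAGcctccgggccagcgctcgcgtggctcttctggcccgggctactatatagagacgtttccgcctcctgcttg
The CArG boxes began 105 and 83 bases before the start of EGR1, 30 and 10 before that of SRF and 60 before that of FILIP1L. The ChoRE of TXNIP began 88 bases before its start. The elements of MT1X began 150, 122, 78 and 53 bases before the start.

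Across the 66 genes that passed the test described in the next paragraph, 52 had an upstream stretch in this table, and 8 motifs were searched on both strands. The other 14, among them EGR3, CCN1, MCL1, DUSP5, ACTB and MYC, could not be searched. A gene counted for a motif if the stretch of any of its starts held it. The shares over all refer to 27305 genes with a stretch, a set not limited to the genes tested in these cells. A CArG box stood in 6 of 35 genes that rose (17.1%), namely FILIP1L, SRF, EGR1, EGR2, FAM53C and TPM4, in 0 of 17 that fell, and in 1.44% of all. FOS, named above for this site, held none in the 250 bases searched, and sites further upstream were not examined. The E-box CACGTG stood in 7 of 17 genes that fell (41.2%), among them ARRDC4, BMP4 and CITED2, in 11.4% of those that rose and in 7.73% of all. This E-box is the core that MYC and related factors read. The ChoRE was present in TXNIP alone among the called genes with a stretch, and in 0.0586% of all. The metal response element was common everywhere, at 42.9% of the genes that rose, 64.7% of those that fell and 28.5% of all, so its presence does not set MT1X apart from the other genes. The FOXO motif GTAAACA stood in TXNIP and DEPP1 among the genes that fell (11.8%), in 0 of the genes that rose and in 3.66% of all. The EGR motif GCGNGGGCG stood in 20% of the genes that rose, 11.8% of those that fell and 10.1% of all. The AP-1 motif TGANTCA, which FOS and JUN dimers bind, stood in 2.86% of the genes that rose, 17.6% of those that fell and 8.06% of all, and the cAMP response element TGACGTCA in 2.86%, 5.88% and 2.03%.

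Of 60623 genes in the table, 16414 had enough reads to be tested, and 66 differed between cells fed for 1 h and starved cells under Torin1 at an adjusted p below 0.05 (edgeR's quasi-likelihood test over all genes, Benjamini-Hochberg), which is 0.402% of the genes tested. Expression was higher after feeding for 45 genes (0.274%) and lower for 21 (0.128%). Scaling by library totals in place of TMM gave 27 higher and 34 lower, so the split between the directions, 68.2% higher as reported and 44.3% with totals, depends on the scaling. The changes were mostly small: genes that rose had a median of 0.63 on the log2 scale and genes that fell had one of -0.96, and 15 rises and 9 falls reached 2-fold. For all 66 genes the 3 fed libraries lay wholly on one side of the 3 starved ones. Over all genes tested that was so for 14.2% upwards and 8.42% downwards. The 6 libraries held 10813101 to 13690036 counts, so 3 counts correspond to 0.219 to 0.277 CPM (counts scaled to library size, here with TMM factors), and pairwise correlations of their log2 CPM across genes were 0.9777 to 0.9853. Mitochondrially encoded genes took 2.39% to 3.33% of the counts in the starved libraries and 2.66% to 3.81% in the fed ones.

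Many of the calls near the threshold were lost when 1 library was left out, and some were lost whichever library it was. With 1 library left out, between 22 and 45 genes were called, the fewest without starved replicate 2 (22) and fed replicate 2 (25). Without starved replicate 3 or fed replicate 3 there were 28 each, without fed replicate 1 there were 36, and without starved replicate 1 there were 45. The 17 genes called with each of the 6 libraries left out were EGR3, FOSB, FOSL2, FILIP1L, ID1, ID3, DUSP5, DUSP8, SLC30A1, CCN1 and MCL1 among those that rose, and TXNIP, DEPP1, PCDH18, GAS1, KCNJ8 and ARRDC4 among those that fell. None of the 66 reversed direction under any alternative run for it.

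The largest rises belonged to transcription factors of the immediate early class, genes that need no new protein for their induction. EGR3, a zinc finger factor of the EGR family, was at 0.835, 0.401 and 0.351 CPM in the starved libraries and at 10.3, 15.9 and 22.4 CPM in the fed ones. The fed libraries spread widely, and the lowest of them was still far above every starved library. Starved replicates 2 and 3 lay close to the level of 3 counts, 0.219 to 0.277 CPM, so the size of the fold is uncertain. The log2 fold change was 4.87 ± 0.37 (SE, n = 3 and 3; edgeR adjusted p = 9.62e-10). FOSB, a partner of JUN in the AP-1 dimer, was at 4.18, 1.84 and 2.9 CPM before and 18.7, 33.3 and 37 CPM after feeding, a log2 fold change of 3.30 ± 0.31 (adjusted p = 6.17e-06). Replicate 1 had the highest starved and the lowest fed value of both genes. EGR1 was at 4.87, 2.24 and 2.54 CPM in starved and 19, 23.5 and 30.4 CPM in fed cells, a log2 fold change of 2.89 ± 0.41 (adjusted p = 0.00777). Its call was lost without starved replicate 2 (adjusted p = 0.0612) or 3 (0.0555), with log2 fold changes of 2.68 and 2.75, and with limma-voom (0.0804).

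FOSL2, another AP-1 member, was at 3.13 to 4.39 CPM in starved and 11.1 to 12.1 CPM in fed cells, a log2 fold change of 1.66 ± 0.24 (adjusted p = 0.000141), and the fed values lay close together. FOS went from 1.44 to 1.49 CPM in starved cells to 5.38 to 8.63 CPM in fed cells, with a log2 fold change of 2.15 ± 0.38 (adjusted p = 0.00867). EGR2 was near the counting limit before feeding, at 0.209 to 0.351 CPM, and reached 1.26 to 2.45 CPM (log2 fold change 2.69 ± 0.55, adjusted p = 0.0161). ATF3, a stress-responsive factor of the ATF family, was at 21.2 to 24.2 CPM before and 48.2, 62.9 and 74.4 CPM after feeding, a log2 fold change of 1.45 ± 0.23 (adjusted p = 0.0154). The calls of FOS, EGR2 and ATF3 were each lost without at least 4 of the 6 libraries, with adjusted p up to 0.095 for FOS, 0.158 for EGR2 and 0.107 for ATF3. With limma-voom the calls of FOS (0.0921) and EGR2 (0.0606) were lost as well. SRF, whose product binds the CArG box, was at 76.5 to 87.8 CPM before and 116 to 122 CPM after feeding (log2 fold change 0.53 ± 0.09, adjusted p = 0.00284), and its call was lost without starved replicate 2 (0.0538).

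Of the 28 early transcription factors listed, all were tested, and 10 rose and 1 fell, with a median log2 fold change of 0.52 against 0.02 over all genes. The other 2 that rose were NR4A1, an orphan nuclear receptor, at 11.4 to 17.7 CPM before and 21.9 to 31.1 CPM after feeding, and HES1, a Notch target, at 33.7 to 39.3 and 49 to 53.6 CPM. The one that fell was MYC, at 258, 226 and 227 CPM before and 151, 172 and 177 CPM after feeding, a log2 fold change of -0.51 ± 0.11 (edgeR adjusted p = 0.0253). The calls of HES1 and MYC were lost with each library left out in turn, at adjusted p up to 0.296 and 0.192, and that of NR4A1 without 4 of them (up to 0.214) and with limma-voom (0.0545). JUN did not pass, at 169 to 197 CPM before and 224 to 293 CPM after feeding (adjusted p = 0.341), and JUNB, JUND and the KLF genes KLF2, KLF4, KLF6 and KLF10 did not pass either. Of the 11 calls in the list, 3 held without starved replicate 2 and 9 at most with another library left out.

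**Figure D1:**
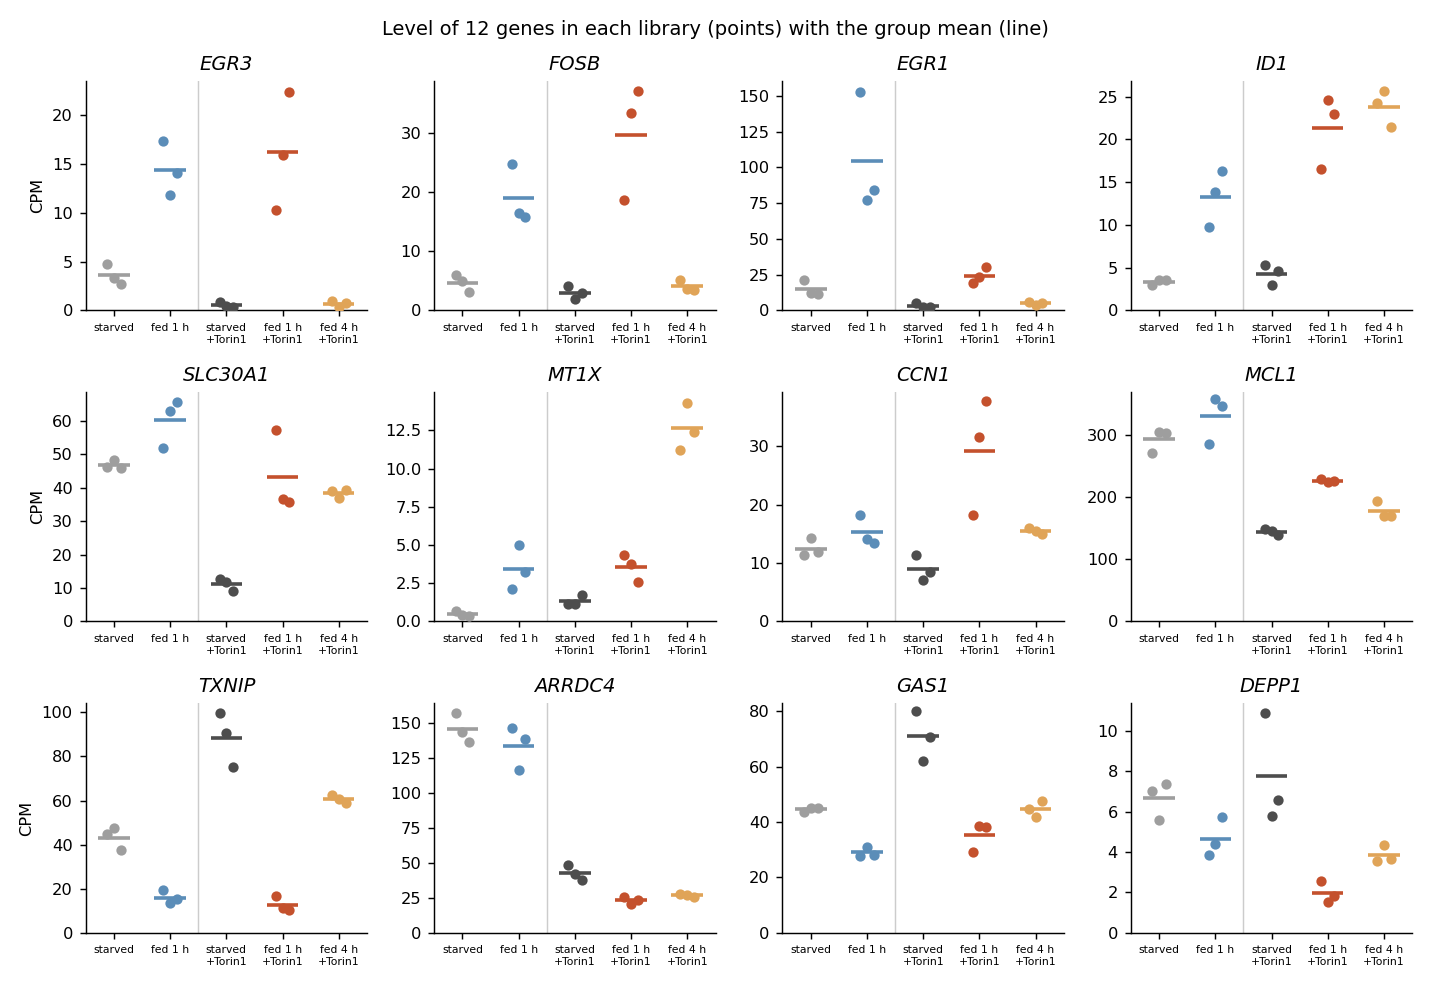
Level in CPM of 12 genes (one panel each, linear axis from 0) in the 3 libraries (points) and as the mean (line) of 5 groups, without Torin1 left of the grey line and with Torin1 right of it. For each gene the 3 libraries fed for 1 h under Torin1 lie wholly above or wholly below the 3 starved ones: EGR3 is at 10.3 to 22.4 CPM against 0.351 to 0.835, and TXNIP at 10.4 to 16.5 CPM against 75.4 to 99.7.

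Of 30 other early genes tested, 2 passed, both upwards. MCL1, an inhibitor of apoptosis with a short-lived protein, was at 148, 145 and 139 CPM in starved and 229, 224 and 226 CPM in fed cells, a log2 fold change of 0.65 ± 0.09 (edgeR adjusted p = 4.6e-05). CCN1, a secreted matrix protein and a target of SRF and YAP, was at 11.3, 7.05 and 8.42 CPM before and 18.3, 31.5 and 37.7 CPM after feeding (log2 fold change 1.70 ± 0.21, adjusted p = 6.55e-05), and its call was lost when only the groups compared were fitted (adjusted p = 0.0807). The other 28 did not pass, among them IER2, BTG2, GADD45B and ZFP36, and the median of the list was 0.09. Among 17 tested genes of a list tied to ERK signalling and its feedback, not all of which limit ERK, DUSP5 and DUSP8 rose. DUSP5, a nuclear phosphatase that acts on ERK, went from 4.04, 1.68 and 1.93 CPM to 12.7, 12.4 and 13.7 CPM (log2 fold change 2.31 ± 0.31, adjusted p = 0.000141). DUSP8, a phosphatase that acts mainly on JNK and p38, went from 15.1 to 18.6 CPM to 26.9 to 37.3 CPM (log2 fold change 1.00 ± 0.17, adjusted p = 0.00257). DUSP1 (adjusted p = 0.0607), DUSP6 (0.639) and SPRY1 (0.0591, lower in the fed libraries) did not pass.

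Genes of the actin cytoskeleton that SRF and YAP control formed a list of 23, of which 20 were tested and 3 rose: CCN1, ACTB and TPM4. ACTB, the cytoplasmic beta-actin often used as a reference gene, was at 1727, 1377 and 1444 CPM before feeding and at 2024, 1927 and 1998 CPM after it, a log2 fold change of 0.39 ± 0.09 (adjusted p = 0.0337). TPM4, a tropomyosin, was at 111 to 127 and 143 to 162 CPM (adjusted p = 0.0459). The calls of ACTB and TPM4 were lost without any library other than starved replicate 1, at adjusted p up to 0.275 and 0.286. The median of the list was 0.25. FILIP1L, a filamin-interacting protein outside these lists, had the fourth largest log2 fold change, 2.80 ± 0.47 (adjusted p = 0.0015), on low counts: 0.557, 0.321 and 0.351 CPM before and 2.05, 3.87 and 2.95 CPM after feeding.

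The ID genes, which encode inhibitors of basic helix-loop-helix factors and are direct targets of BMP and SMAD signalling, rose in part. ID1 was at 5.29, 2.97 and 4.56 CPM in starved and 16.5, 24.6 and 23 CPM in fed cells, a log2 fold change of 2.32 ± 0.21 (edgeR adjusted p = 1.25e-08). ID3 was at 31.7, 18.7 and 21.2 CPM before and 41.7, 46.2 and 39.8 CPM after feeding (log2 fold change 0.83 ± 0.14, adjusted p = 0.00158), and its call was lost when only the groups compared were fitted (adjusted p = 0.0596). ID2 (adjusted p = 0.775), ID4 (0.711), SMAD6 (0.942) and SMAD7 (0.598) did not pass. The ligand BMP4 fell, from 10.2, 8.25 and 9.3 CPM to 3.85, 4.54 and 4.96 CPM (log2 fold change -1.05 ± 0.23, adjusted p = 0.0293), and its call was lost with each library left out in turn, at adjusted p up to 0.188.

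Among genes of zinc export and metal storage, 4 rose. SLC30A1, the zinc exporter of the plasma membrane and a target of the metal-sensing factor MTF1, was at 12.7, 11.9 and 9.12 CPM in starved and 57.1, 36.5 and 35.6 CPM in fed cells, a log2 fold change of 1.92 ± 0.16 (edgeR adjusted p = 2.54e-07). The metallothioneins, small proteins that bind zinc and copper, were low throughout. MT1X was at 1.11, 1.12 and 1.75 CPM before and 4.36, 3.78 and 2.59 CPM after feeding (log2 fold change 1.43 ± 0.28, adjusted p = 0.0119), MT2A at 5.61 to 8.69 and 9.64 to 15.3 CPM (0.82 ± 0.17, adjusted p = 0.0216), and MT1F at 0.557 to 1.32 and 1.8 to 4.29 CPM (1.65 ± 0.39, adjusted p = 0.0459). The metallothionein genes are near-identical copies, and how the counting divided reads between them is uncertain. Their calls were lost without 4 or 5 of the 6 libraries, at adjusted p up to 0.107, 0.244 and 0.258, and with limma-voom (0.127, 0.0755 and 0.118). Of the 15 genes in the list, 9 were tested, 4 rose and 0 fell. The importers SLC39A6 (adjusted p = 0.408) and SLC39A10 (0.236) had lower fed values and did not pass.

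The deepest fall among genes with at least 1 CPM was that of TXNIP, at 99.7, 90.6 and 75.4 CPM before feeding and 16.5, 11.3 and 10.4 CPM after 1 h of it. The groups lay far apart, and the log2 fold change was -2.81 ± 0.16 (edgeR adjusted p = 8.72e-12). ARRDC4, an arrestin-domain relative of TXNIP that the same glucose-sensing factors drive, fell from 48.5, 41.8 and 37.4 CPM to 25.5, 20.1 and 23.3 CPM (log2 fold change -0.89 ± 0.12, adjusted p = 3.78e-05). The other 11 genes of that list of 13 did not pass, including the relative ARRDC3 (adjusted p = 0.28), the sensors MLXIP (0.716) and MLXIPL (0.577) and the glucose transporter SLC2A1 (0.582).

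Genes linked to FOXO factors and to growth arrest gave 3 falls and 0 rises among 33 tested, with a list median of -0.19. GAS1, a membrane protein first known from growth-arrested cells, was at 80.3, 62.1 and 70.7 CPM before and 29.3, 38.4 and 38.2 CPM after feeding, a log2 fold change of -1.01 ± 0.11 (adjusted p = 1.41e-06). DEPP1, a FOXO target linked to autophagy, went from 10.9, 5.77 and 6.58 CPM to 2.57, 1.51 and 1.8 CPM (log2 fold change -1.99 ± 0.27, adjusted p = 6.55e-05). CITED2, a transcriptional coregulator, was at 42.1 to 65.6 and 26.7 to 34.7 CPM (log2 fold change -0.76 ± 0.16, adjusted p = 0.0344), and its call held with 1 of the 6 libraries left out (adjusted p up to 0.171). PIK3IP1, an inhibitor of PI3 kinase, was at 4.39 to 6.05 and 2.35 to 2.4 CPM with no overlap and did not pass (adjusted p = 0.0957). The FOXO targets IRS2 (adjusted p = 1), SESN3 (0.973), CDKN1B (0.806) and PDK4 (0.374) did not pass either.

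The remaining falls were scattered in function. PCDH18, a protocadherin, went from 3.34, 4.33 and 4.56 CPM to 1.2, 0.841 and 1.29 CPM (log2 fold change -1.86 ± 0.32, edgeR adjusted p = 0.00269). KCNJ8, a subunit of the ATP-sensitive potassium channel, went from 15.5, 14.1 and 11.8 CPM to 7.01, 6.3 and 7.48 CPM (-0.99 ± 0.16, adjusted p = 0.000959). SKIDA1 was at 3.69 to 5.26 and 1.63 to 2.19 CPM (adjusted p = 0.0125), and its call was lost without 4 of the 6 libraries (up to 0.11). SLC16A4-AS1, an antisense transcript at 6.13 to 10.3 and 2.74 to 4.46 CPM, cannot be told apart from its partner where strand was not counted, and the sources used here do not give the strand setting. The unnamed genes ENSG00000255031 (log2 fold change -1.70, adjusted p = 0.0469) and ENSG00000260007 (-0.96, adjusted p = 0.0406) also fell. C2CD4A passed on very few reads, at 0.487, 0.321 and 0.79 CPM before feeding and 0.0855, 0 and 0 CPM after it, so no fold is given. Among smaller rises, chosen for mention after their values were seen, were KPNA2, a nuclear import receptor (281 to 312 and 398 to 405 CPM, adjusted p = 0.0085), RIOK2, a kinase of small-subunit ribosome assembly (29.8 to 31.1 and 44.9 to 46.4 CPM, adjusted p = 0.00777), and ATF4, the factor of the amino acid response (377 to 395 and 459 to 478 CPM, adjusted p = 0.0469). The call of ATF4 was lost with each library left out in turn, at adjusted p up to 0.267.

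**Figure D2:**
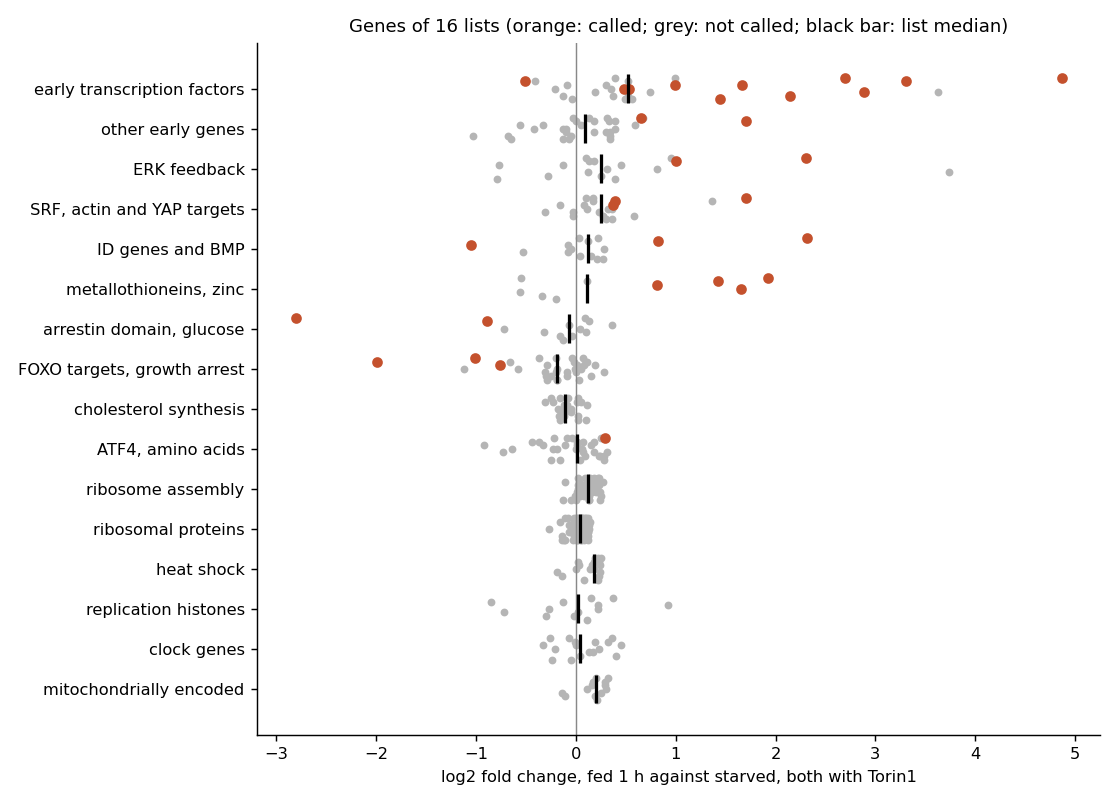
Log2 fold change of fed for 1 h against starved cells, both with Torin1, for the tested genes of 16 lists (points, orange where called, with the list median as a black bar). Early transcription factors hold 10 of the called rises and reach 4.87, while the lists for ribosome assembly, ribosomal proteins, cholesterol synthesis, heat shock, histones, clock and mitochondrially encoded genes hold no called gene.

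In several large programmes no gene passed. None of the 42 ribosome assembly genes was called, and their median log2 fold change was 0.12 with 37 of 42 positive, which became 0.07 and 29 of 42 with library totals. Over all genes tested, 54% were positive as reported and 44.2% with library totals. NCL, the abundant nucleolar protein nucleolin, had the smallest p among them, at 1123 to 1160 CPM in starved and 1289 to 1398 CPM in fed cells (edgeR adjusted p = 0.214). None of the 78 ribosomal protein genes was called (median 0.04, and -0.01 with library totals), and RPS4X had an adjusted p of 0.466. Among 23 cholesterol synthesis genes none passed (median -0.11), and DHCR7, the last reductase of the pathway, was at 159 to 178 CPM before and 135 to 143 CPM after feeding (adjusted p = 0.422). None of 18 heat shock genes passed (median 0.18), with HSP90AB1 at an adjusted p of 0.28. None of 17 clock genes passed (median 0.04, and -0.01 with library totals), with NR1D2 at 0.193. None of 13 histone genes passed (median 0.02, and -0.03 with library totals), with H2AC6 at 0.308, and none of 13 mitochondrially encoded genes (median 0.20), with MT-CYB at 0.592. Among 32 tested members of the list for ATF4 and amino acid metabolism, ATF4 alone passed (list median 0.01, and -0.03 with library totals, where 0 genes were called higher and 2 lower). In simulated counts at this depth the test recovered 56.7% of genes changed 1.5-fold, 68.7% of those changed 2-fold and 93.9% of those changed 4-fold. Recovery within each programme was not tested. Log2 fold changes ran from -0.126 to 0.275 in the ribosome assembly list and from -0.266 to 0.138 in the ribosomal protein list. Standard errors differed between genes, at 0.070 for NCL and 0.062 for RPS4X against 0.429 for the histone gene H2BC4. With errors as large as that of H2BC4, changes of 2-fold or less, and some larger ones, could be missed.

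The labelled cell type was checked against marker lists. Of 15 genes that mark this kidney line, 14 were tested and none was called, while PAX8 was at 0 to 0.139 CPM. Vimentin (VIM) was at 1038 to 1308 CPM. Other members of that list were low, with PAX2 at 2.22 to 3.21, WT1 at 1.85 to 3.85 and LHX1 at 1.53 to 4.21 CPM. Some markers of other cell types lay above those: EGFL7 (endothelial) at 13 to 23.7, COL1A1 (fibroblast) at 14.4 to 16.7 and CDH1 (epithelial) at 5.68 to 9.07 CPM. These levels do not settle the cell type, and the lack of a call between fed and starved cells does not bear on it. Of 7 fibroblast, 7 endothelial, 7 immune and 9 epithelial markers, 5, 2, 2 and 4 had enough reads to be tested and none of those was called, and CDH5, KRT5, KRT7 and KRT19 were at 0 in all 6 libraries. Summed levels overlapped between starved and fed libraries for each of these: 17.6 to 19 and 16.6 to 20 CPM for fibroblast, 16.7 to 24.5 and 13.9 to 18.9 CPM for endothelial, 3.45 to 5.7 and 2.4 to 5.04 CPM for immune, and 12.2 to 14.8 and 10.9 to 14.5 CPM for epithelial markers.

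Feeding for 1 h was also given without Torin1, in libraries that share none with the comparison under the drug, which asks whether the response is the same size without it. There, 106 genes were called (0.646%), 79 higher (0.481%) and 27 lower (0.164%). The 2 lists overlapped in part: EGR3, ID1, FOSB, EGR1 and MT1X were higher in both, which is 6.33% of the list without Torin1 and 11.1% of that with it, and TXNIP and GAS1 were lower in both, 7.41% and 9.52%. Of the 45 genes that rose under Torin1, 36 had a positive value without it (51.7% of all genes did), with a median log2 fold change of 0.17. Of the 21 that fell, 19 had a negative value, with a median of -0.22. Both sets were chosen for their change under Torin1, which by itself makes smaller values without it likely. Going the other way, 62 of the 79 genes that rose without Torin1 had a positive value under it (54% of all genes did), with a median of 0.14 against their own 0.70, but those 79 were chosen for their rise.

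The levels of both responses are given side by side. Without Torin1, EGR3 was at 3.59 ± 1.07 CPM in starved and 14.4 ± 2.8 CPM in fed cells (mean ± SD, n = 3), against 0.529 ± 0.27 and 16.2 ± 6.1 CPM with it. FOSB was at 4.66 and 19 CPM without Torin1 and at 2.97 and 29.7 CPM with it, as means. EGR1 was at 14.8 and 105 CPM without Torin1 and at 3.22 and 24.3 CPM with it, and its log2 fold changes, 2.83 ± 0.34 and 2.89 ± 0.41, lay within their errors. SLC30A1 was at 46.7 and 60.1 CPM without the drug and 11.2 and 43 CPM with it. TXNIP was at 43.1 and 15.9 CPM without it and 88.6 and 12.7 CPM with it. ARRDC4 was at 145 and 133 CPM without it and 42.5 and 23 CPM with it. In EGR3, SLC30A1 and TXNIP the fed means of the 2 conditions differed by fewer CPM than the starved means, and in FOSB, EGR1 and ARRDC4 by more. These are differences in CPM and not in fold, and the fold changes are compared in the next paragraph.

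The difference between the 2 responses was tested as an interaction. It was called for 11 genes (0.067%), 2 with a more positive response under Torin1 (0.0122%) and 9 with a more negative one (0.0548%), and 1072 genes had an unadjusted p below 0.05. Of the 66 genes called under Torin1, 4 were among them: EGR3 (difference 2.86, edgeR adjusted p = 0.0112), SLC30A1 (1.56, 0.00362), TXNIP (-1.37, 0.00806) and ARRDC4 (-0.77, 0.0478), each with a larger change under the drug. The 66 were chosen for their change under the drug, which favours that direction. The call for EGR3 was lost without starved Torin1 replicate 2 (adjusted p = 0.108) or 3 (0.0756), that for TXNIP without fed Torin1 replicate 2 (0.0523), and that for ARRDC4 without any of 10 of the 12 libraries involved (up to 0.194), while that for SLC30A1 held with each library left out. FOSB (0.54), EGR1 (0.995), ID1 (0.882), MT1X (0.534) and GAS1 (0.663) did not pass, by adjusted p. FILIP1L, with log2 fold changes of 2.80 under Torin1 and 0.13 without it, did not pass either (adjusted p = 0.0989), nor did CCN1 (0.0989), FOSL2 (0.0989), DUSP5 (0.307) or MYC (0.0817).

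**Figure D3:**
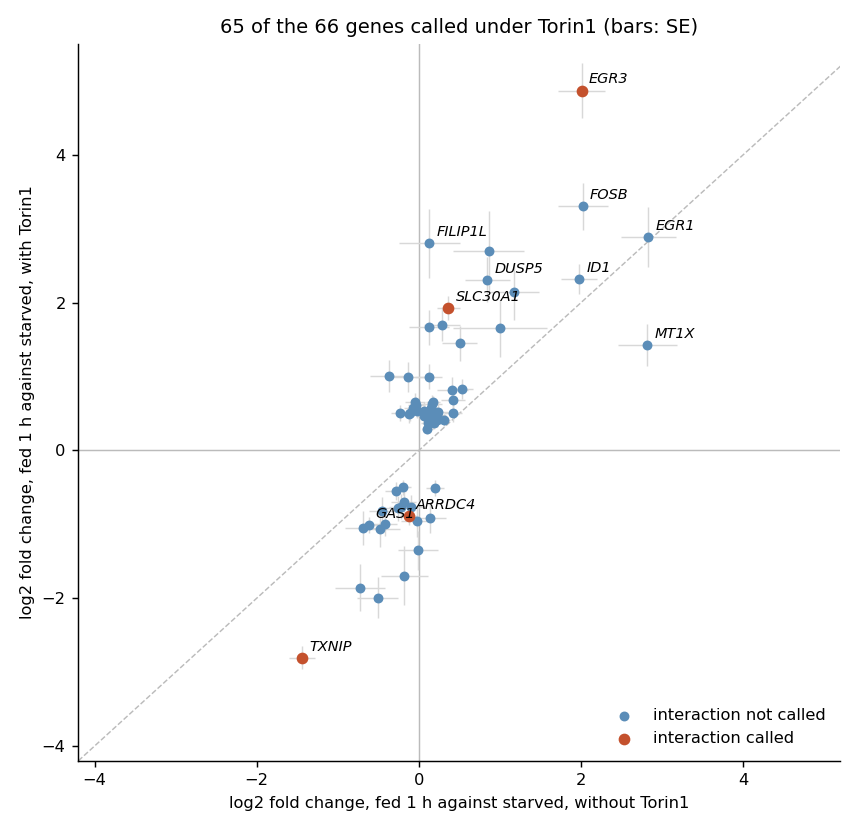
Log2 fold change of fed for 1 h against starved cells with Torin1 (vertical) against the same without Torin1 (horizontal) for 65 of the 66 called genes, C2CD4A being left out for its few reads, with standard errors as bars and equal change as the dashed line. EGR3, SLC30A1, TXNIP and ARRDC4 (orange) passed the test of the difference.

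The starved Torin1 libraries also serve as the control for feeding of 4 h under the drug, so the levels are given side by side. Mean EGR3 was 0.529 CPM starved, 16.2 CPM at 1 h and 0.676 CPM at 4 h, and FOSB was 2.97, 29.7 and 4.07 CPM. EGR1 was 3.22, 24.3 and 4.86 CPM, DUSP5 was 2.55, 12.9 and 3.84 CPM, and CCN1 was 8.94, 29.2 and 15.5 CPM. In these 5 genes the 1 h mean was the highest of the 3. TXNIP was 88.6, 12.7 and 60.6 CPM, and GAS1 was 71, 35.3 and 44.6 CPM, with the lowest mean at 1 h. ID1 was 4.27, 21.4 and 23.8 CPM, ID3 was 23.9, 42.6 and 85.7 CPM, MT1X was 1.33, 3.58 and 12.6 CPM and MT2A was 6.92, 12.2 and 22.4 CPM, with the highest mean at 4 h. At 4 h, 296 genes were called (1.8%), 136 higher (0.829%) and 160 lower (0.975%).

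The estimated counts per isoform, whose values scatter more than those of genes, are given as levels with no test. FOSB-201, a protein-coding isoform, was listed at 0 in all 3 starved libraries and at 13.8, 19.4 and 27.8 CPM in the fed ones, while FOSB-210 was at 0 to 1.68 and 2.4 to 8.41 CPM. NR4A1-201 was listed at 0 in the starved libraries and at 5.99, 3.78 and 1.94 CPM in the fed ones, while NR4A1-204 was at 7.11 to 13.4 and 10.7 to 21 CPM. TXNIP-204 held most of the TXNIP counts, at 74 to 96.5 CPM before and 9.49 to 16.5 CPM after feeding. ATF3-202 was at 17.7 to 19.8 and 41.6 to 66.5 CPM, and MYC-202 at 139 to 153 and 91.2 to 107 CPM.

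By GENCODE 29, the genes that changed had shorter spans than the genes tested as a whole. The median gene span was 14.4 kb for those that rose and 9.03 kb for those that fell, against 28.4 kb over the genes tested, and the median of the largest number of exons in a transcript was 5, 4 and 8. All 45 genes that rose were protein coding, as were 16 of the 21 that fell and 13616 of the 16253 tested genes found in GENCODE 29. No test was made of these differences.

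**Figure D4:**
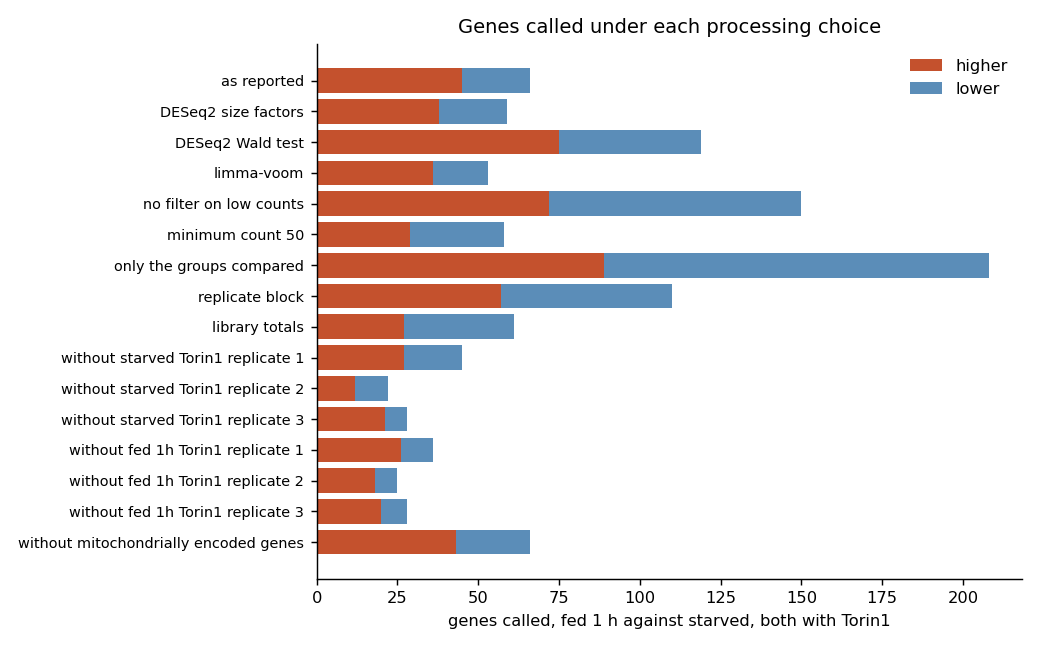
Number of genes called higher (orange) and lower (blue) after 1 h of feeding under Torin1 for each processing choice, with the top bar as reported. The bars range from 22 genes without starved replicate 2 to 208 when the 6 libraries compared are fitted alone.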

How the data were processed

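RNA sequencing counts per gene and per isoform in 18 libraries of HEK-293E cells were used. Both deposited tables hold expected counts, which STAR in 2-pass mode and RSEM produced per the submitters' processing notes, which also name DESeq2 and give no versions. Those notes name a nematode build while the gene IDs are human. No human build, annotation or strand setting is given in the sources used here. Of the deposited values, 3.32% were not whole, and all were rounded. Names came from a reference table (60295 IDs matched) and, for the rest, from GENCODE 29 (309 IDs matched).

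Genes passing edgeR's filterByExpr (minimum count 10) were fitted with edgeR 4.0.16 (quasi-likelihood, robust, TMM, R 4.3.3) on all 18 libraries with 6 group means and 12 residual degrees of freedom, and called at a Benjamini-Hochberg adjusted p below 0.05. The standard errors follow from the F statistics. Biological variation had a common coefficient of 10.6%. CPM were scaled by TMM. Alternatives used DESeq2 1.42.0, limma 3.58.1, other filters and scalings, fewer groups, a replicate block and each library left out. On simulated counts, the test recovered 68.7% of 2-fold changes (15967 genes tested). It called 7 of 16214 unchanged genes, a number that includes genes removed by the filter, which could not be called. The planned isoform test recovered 8 of 200 simulated 4-fold changes and was not used.

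The genes named were the 14 largest rises and 10 largest falls among called genes with at least 1 CPM and no overlap, 4 given markers, up to 6 called genes per list (or the 2 with the smallest p) and the called interactions. The comparison and lists were chosen with earlier results of these data known. The limit of 3 counts concerns counting error only, while the standard errors also carry the variation between these libraries, which may be technical.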

Additional observations from a re-analysis of the deposited data

Results flagged for a closer look

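The response to 1 h of feeding differed between cells with and without Torin1 for 11 genes by the interaction test (edgeR, Benjamini-Hochberg adjusted p), given as the log2 fold change under Torin1 minus that without it. It was 1.56 for SLC30A1 (adjusted p = 0.00362), 2.86 for EGR3 (0.0112), -1.37 for TXNIP (0.00806) and -0.77 for ARRDC4 (0.0478). KBTBD7, a substrate adaptor of a ubiquitin ligase, had -1.74 (0.00362): it rose without Torin1, from 1.34 to 2.85 CPM to 5.42 to 6.86 CPM, and under the drug was at 16.2 to 19.4 and 13.7 to 15 CPM. SIK1, a kinase induced by cAMP signalling, had -2.47 (0.0414), with log2 fold changes of -1.04 under Torin1 and 1.43 without it. The histone genes H4C8 (-2.43, 0.0478) and H4C14 (-1.91, 0.0478) belong to a family of near-identical copies, whose reads the counting may have split. ENSG00000280614, ENSG00000280800 and ENSG00000281181 had identical values (-2.36, 0.0414) and count as 1 signal, at 574 to 700 CPM starved and 2039 to 3456 CPM fed without the drug, and 1504 to 1578 and 925 to 1462 CPM with it. SLC30A1 and KBTBD7 were called under every alternative run for them. The other calls were each lost with at least 1 library left out, for example TXNIP without fed Torin1 replicate 2 (adjusted p = 0.0523), EGR3 without starved Torin1 replicate 2 (0.108) and SIK1 without starved replicate 2 (0.136).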

How the results depend on the processing

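Of the 66 genes called for 1 h feeding under Torin1, 15 were called under every alternative run for them, 51 lost the call under at least 1, and 0 reversed. The total of 66 (45 higher, 21 lower) became 119 (75 and 44) with the DESeq2 Wald test, 150 (72 and 78) without a filter on low counts, 208 (89 and 119) when only the groups compared were fitted, and 22 to 45 (12 to 27 and 7 to 18) with each library left out; library totals gave 27 higher and 34 lower, a minimum count of 50 gave 29 higher and 29 lower, and limma-voom gave 53 (36 and 17), 49 of them among the 66. With the replicate number as a block, 110 genes were called, 53 of them lower, including all 66. Same-numbered libraries of the 2 groups correlated at 0.0503 to 0.0883 and others at -0.0541 to 0.00324; all 6 correlated best with their own number, a hint from the data and not the design, so the samples share only a number. For 1 h feeding without Torin1 the count of 106 became 167 (DESeq2 Wald), 164 (no filter), 39 (only the groups compared) and 55 to 248 (each library left out, the most without fed replicate 1). For 4 h feeding under Torin1 the count of 296 became 491 (DESeq2 Wald), 640 (only the groups compared) and 134 to 189 (each library left out). For the interaction of 1 h feeding with Torin1 the count of 11 became 43 (DESeq2 Wald), 3 (limma-voom), 77 (no filter), 4 (only the groups compared), 23 (replicate block) and 3 to 39 (each library left out). Leaving out mitochondrially encoded genes, chosen after seeing the data, gave 66, of which 64 were shared: FERMT2 (adjusted p = 0.0501) and ZBTB21 (0.0517) lost their calls. The causes were not tested. Alternatives for the isoform test were not run, since that test was not used. Depth limits genes near 3 counts, such as EGR2, C2CD4A and, in the starved Torin1 libraries, EGR3.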
